A study of Mus musculus with 6 samples.

Results

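The C/EBP transcription factors were followed as the genes Cebpa, Cebpb, Cebpd, Cebpe, Cebpg and Ddit3, picked out by gene symbol, with no measured value in the rule, although the family itself was proposed with earlier results of these data known. Each of the 6 genes was read by 1 probe set of the array, so the family made up 6 of 19938 genes and 6 of 35556 probe sets. The samples were whole livers of male C57BL6 mice aged 10 weeks, all without food for 16 h. Control animals received saline and treated animals 100 ng of interleukin-6 (IL-6) each, into the peritoneal cavity, and tissue was taken 1 h later. There were 3 arrays per group, and the labels name no transgene, deletion or batch. Values are log2 expression per probe set, so a difference of 1 is a doubling. In bulk tissue, fewer cells of a type and less RNA per cell cannot be told apart.

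C/EBP proteins bind DNA as dimers through a basic region and a leucine zipper, and members pair with each other and with some other leucine zipper factors. In liver, C/EBP-alpha maintains the metabolic program of mature hepatocytes. C/EBP-beta was found as a factor on IL-6 responsive promoters, and C/EBP-beta and C/EBP-delta act on acute-phase genes, whose products the liver releases in inflammation. C/EBP-gamma lacks strong activating domains, C/EBP-epsilon works in maturing granulocytes, and Ddit3 encodes CHOP, a dimer partner induced by endoplasmic reticulum and amino acid stress. The arrays measured transcripts, not the protein isoforms, phosphorylation or dimers through which these factors also act.

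RefSeq promoter sequences on build GRCm38.p6 matched 4 of the 6 genes, namely Cebpa, Cebpb, Cebpg and Ddit3, and Cebpd and Cebpe were not matched. Shown here are the 250 bases before the transcript start of Cebpb and Ddit3, the members whose intervals did not include 0, and of Cebpa, which had the smallest spread in saline. They lie at chr2:167688665-167688914, chr10:127290543-127290792 and chr7:35119043-35119292, all on the plus strand. Capitals mark every match to the motifs searched, which were TGACG (part of the cAMP response element), TATAAA (the TATA box), CCAAT (bound by NF-Y), TTGCNNAA (C/EBP), TTCNNNGAA (STAT), TGATGCAA (C/EBP-ATF) and TGACGTCA (the full response element, which contains TGACG), each on both strands.
Cebpb: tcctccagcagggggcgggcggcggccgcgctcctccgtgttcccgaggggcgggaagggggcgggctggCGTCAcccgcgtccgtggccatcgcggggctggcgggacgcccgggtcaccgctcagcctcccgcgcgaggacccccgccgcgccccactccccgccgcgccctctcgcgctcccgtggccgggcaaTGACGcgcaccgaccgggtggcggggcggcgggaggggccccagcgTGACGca
Ddit3: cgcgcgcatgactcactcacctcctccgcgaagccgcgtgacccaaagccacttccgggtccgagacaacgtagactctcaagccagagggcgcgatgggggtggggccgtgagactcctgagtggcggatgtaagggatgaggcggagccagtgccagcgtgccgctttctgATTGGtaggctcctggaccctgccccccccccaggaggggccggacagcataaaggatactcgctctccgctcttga
Cebpa: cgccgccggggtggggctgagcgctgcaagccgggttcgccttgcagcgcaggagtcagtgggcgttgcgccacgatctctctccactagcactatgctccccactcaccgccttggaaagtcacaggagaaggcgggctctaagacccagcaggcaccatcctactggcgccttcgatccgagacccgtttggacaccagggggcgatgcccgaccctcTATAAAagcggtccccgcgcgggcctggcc

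The Cebpb window held TGACG or its complement at 3 places, starting 180, 53 and 7 bases before the start, and it was the only window of the 4 with that motif. Of 32544 distinct promoter windows, 17.8% held it. Ddit3 held 1 CCAAT match and Cebpg 2, a motif found in 33.8% of windows. Cebpa held 1 TATAAA match (12.3% of windows), and Cebpb held one only when the 50 bases after the start were added. None of the 4 windows matched TTGCNNAA (9.58% of windows), TTCNNNGAA (7.04%), TGATGCAA (0.762%) or TGACGTCA (1.56%). A match is a description of the letters, and its absence says only that they are not in this window.

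None of the C/EBP genes rose or fell 1 h after IL-6 in limma over all genes (0 of 6 at adjusted p under 0.05), where 0.421% of all genes passed, 0.386% higher and 0.0351% lower. At an unadjusted limma p under 0.05, 2 of 6 members were higher and 0 lower, beside 3.78% and 2.83% of all genes (6.62% in either direction). The differences of 5 members were above 0 and that of Cebpa below it, with a median of 0.21 on the log2 scale against 0.003 for all genes. The 3 IL-6 values and the 3 saline values overlapped in all 6 members, while they did not overlap in 11.6% of genes (6.15% higher and 5.48% lower). Without saline replicate 2 and IL-6 replicate 3, the arrays that stood apart on the second principal component, the count was also 0. That comparison of 2 arrays against 2, chosen after seeing the data, called only 31 genes higher and 2 lower in all, in place of 77 and 7, and does not show stability.

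**Figure D1:**
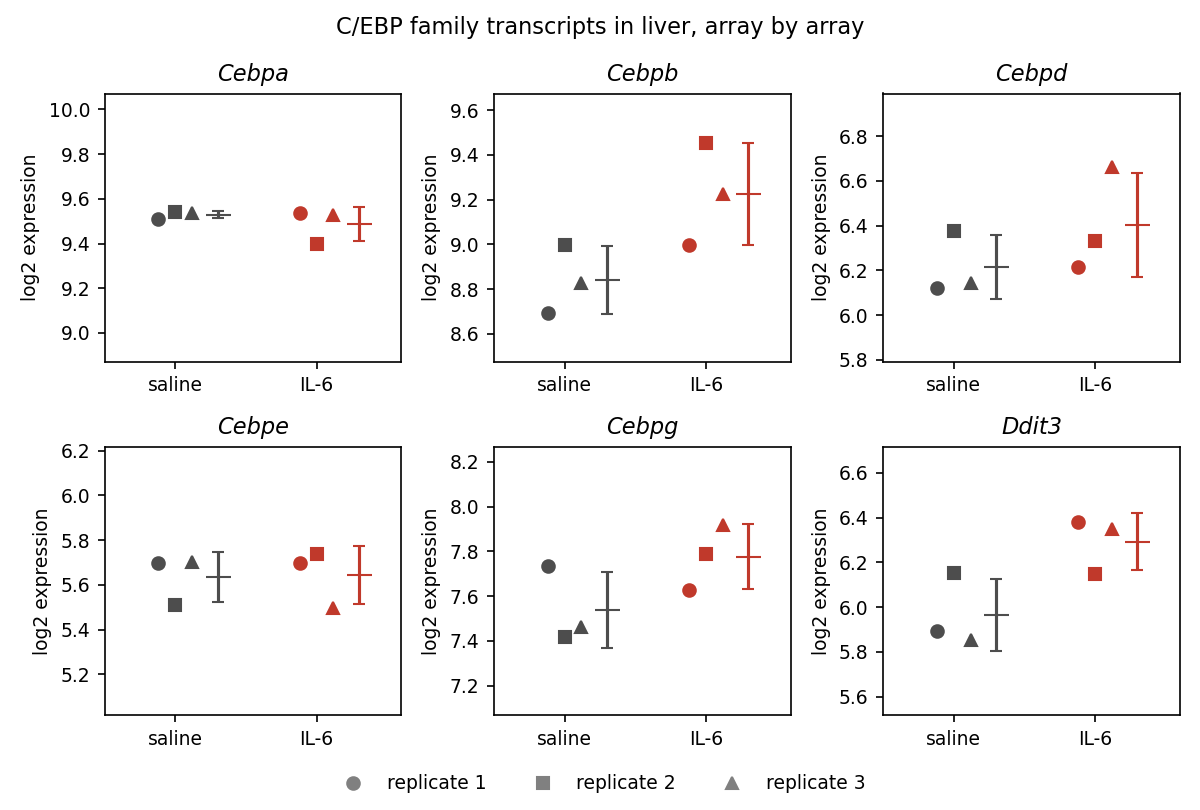
Log2 expression of the C/EBP genes in each array (points, shape by replicate number, which does not pair animals), with the mean and SD of each group beside them (n = 3). Every panel spans 1.2 log2 units, and the IL-6 and saline points overlap in each gene, most narrowly in Cebpb and Ddit3.

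Cebpb encodes C/EBP-beta, the family member classically tied to the acute-phase response. Its saline arrays read 8.70, 8.996 and 8.83 and its IL-6 arrays 8.996, 9.45 and 9.23. The middle and highest IL-6 values stood above all saline values, and the lowest IL-6 value was level with the highest saline value at 8.996. The means were 8.84 ± 0.15 and 9.23 ± 0.23 (SD, n = 3), a log2 difference of 0.38 ± 0.12 (standard error), or 1.31-fold with a 95% interval from 1.08 to 1.58. With all 6 arrays this was the largest difference in the family, and it did not pass (unadjusted p = 0.0122, limma adjusted p = 0.522). At its own standard error a difference of 0.73 would have been needed to pass. Its highest array, IL-6 replicate 2, was also the highest for the mean of 11 Kupffer cell and macrophage markers. In replicate order those means were 6.51, 6.46 and 6.33 in saline and 6.45, 6.71 and 6.44 after IL-6. Saline replicate 1 had the highest marker mean of the saline arrays and the lowest Cebpb value. IL-6 replicate 2 was also the highest array for the mean of 12 neutrophil markers (4.301, beside 4.296 in IL-6 replicate 1). It was the highest for no other marker list. The part of either list's markers in the Cebpb values was not tested. Without IL-6 replicate 2 the Cebpb difference was 0.27, below the 0.40 of Ddit3. Cebpb was also below Cebpg without saline replicate 1 (0.31 and 0.34), and level with Ddit3 under array weights (0.35 for both).

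Ddit3, which encodes CHOP, had saline values of 5.89, 6.15 and 5.85 and IL-6 values of 6.38, 6.15 and 6.35. Replicates 1 and 3 after IL-6 lay above every saline array, while IL-6 replicate 2 was level with saline replicate 2 at 6.15. The difference was 0.33 ± 0.10, or 1.26-fold with a 95% interval from 1.07 to 1.47 (unadjusted p = 0.0107, limma adjusted p = 0.504). The SDs were 0.16 in saline and 0.13 after IL-6 (n = 3). Mbd6 and Mars1 overlap Ddit3 in the RefSeq gene table, and their probe sets had differences of 0.06 ± 0.10 and -0.03 ± 0.07.

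Cebpd encodes C/EBP-delta, known as an early gene of inflammation. Its values were 6.12, 6.38 and 6.14 in saline and 6.22, 6.33 and 6.66 after IL-6. Only IL-6 replicate 3 exceeded all saline arrays, and the highest array of each group was the one that stood apart on the second principal component. The difference was 0.19 ± 0.12, or 1.14-fold with a 95% interval from 0.941 to 1.38 (limma adjusted p = 0.884). That interval lies below 2-fold. Without IL-6 replicate 3 the difference was 0.06, and without saline replicate 2 as well it was 0.14 ± 0.09. Spidr overlaps Cebpd in the gene table, and its own probe set had a difference of -0.05 ± 0.09.

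Cebpg, the member without strong activating domains, read 7.73, 7.42 and 7.46 in saline and 7.63, 7.79 and 7.92 after IL-6. Replicates 2 and 3 after IL-6 stood above saline, and saline replicate 1 lay above IL-6 replicate 1. The difference was 0.24 ± 0.11, or 1.18-fold with a 95% interval from 0.996 to 1.40 (unadjusted p = 0.0542, limma adjusted p = 0.764). Without saline replicate 2 and IL-6 replicate 3 it was 0.11 ± 0.12.

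Cebpa encodes C/EBP-alpha, the hepatocyte factor, and was the steadiest member. It read 9.51, 9.54 and 9.53 in saline and 9.54, 9.40 and 9.53 after IL-6. IL-6 replicate 2 was the low array, and the others lay between 9.51 and 9.54. The difference was -0.04 ± 0.07, or 0.972-fold with a 95% interval from 0.866 to 1.09 (limma adjusted p = 0.965).

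Cebpe encodes the granulocyte factor C/EBP-epsilon. It read 5.70, 5.51 and 5.70 in saline and 5.70, 5.74 and 5.50 after IL-6. The low array of each group was again the one that stood apart on the second principal component. The difference was 0.01 ± 0.09, with a 95% interval from 0.869-fold to 1.16-fold (limma adjusted p = 0.992). The mean of 12 neutrophil markers was low in both groups, 4.14 to 4.22 in saline and 4.08 to 4.30 after IL-6. The 25th percentile over all genes was 4.59. Of the 12 markers 1 was called, S100a8, which was higher, beside 0.386% of all genes called higher. The differences of 6 markers were above 0 and those of 6 below it. At an unadjusted limma p under 0.05, 1 was higher (S100a8) and 1 lower, beside 3.78% and 2.83% of all genes. The lower one was Ly6g (-0.27 ± 0.10), named outside the rule. Whether these bulk values report granulocytes in the liver was not tested.

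Over the 6 members, the median SD was 0.15 in saline and 0.14 after IL-6, beside 0.10 and 0.10 over all genes. Cebpa lay below the median of all genes in both groups, with SDs of 0.02 and 0.08. Saline replicate 2 was the highest saline array for Cebpa, Cebpb, Cebpd and Ddit3 and the lowest for Cebpe and Cebpg.

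**Figure D2:**
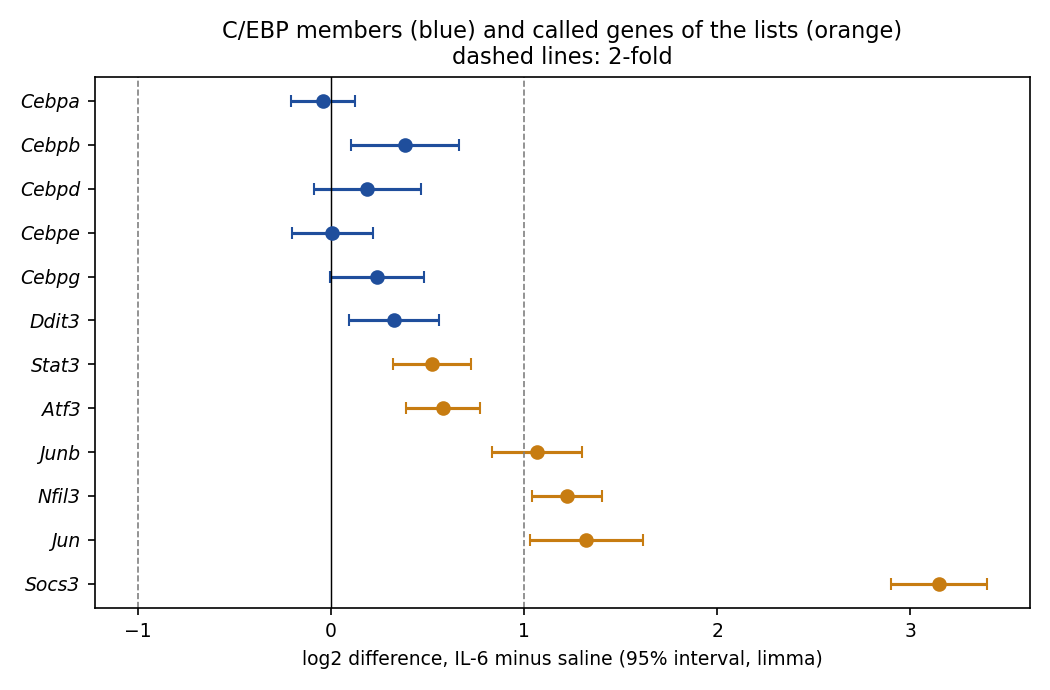
Log2 difference between IL-6 and saline with its 95% limma interval for the C/EBP genes (blue) and for called genes of the signalling and leucine zipper lists (orange), with dashed lines at 2-fold. All C/EBP intervals lie between -0.21 and 0.66, while Socs3 lies at 3.15 and Jun, Nfil3 and Junb at 1.07 to 1.32.

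Whether members changed unequally was asked within arrays, by subtracting one member's log2 value from the other's in each of the 15 pairs. A subtraction of this kind compares changes and not levels, since different probe sets have different brightness. Cebpa minus Cebpb was 0.82, 0.55 and 0.70 in saline and 0.54, -0.05 and 0.30 after IL-6, so it was lower in all 3 IL-6 arrays, by a mean of 0.43 ± 0.19 (standard error) on the log2 scale. Cebpa minus Ddit3 was 3.62, 3.39 and 3.68 in saline and 3.16, 3.25 and 3.18 after IL-6, a mean shift of -0.37 ± 0.09. In these 2 of the 15 pairs the groups did not overlap and the exact two-sided permutation p was 0.1, the smallest that 3 arrays against 3 can give. Among all genes taken singly, 11.6% did not overlap, and the share among pairs of other genes was not computed. For Cebpa minus Cebpb the groups were nearly level, at 0.546 in saline replicate 2 and 0.541 in IL-6 replicate 1. In the other 13 pairs the groups overlapped, with exact permutation p from 0.2 to 0.9. Adjusted over 15 pairs no p was under 0.429. No pair could have reached 0.05 with this number of arrays, so the test says nothing on whether members changed unequally, and the shifts stand as descriptions. The pairs share members and are not independent.

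The chain that leads from IL-6 to the members held called genes. The list covered the IL-6 receptor, JAK, STAT and MAP kinase chain and other regulators of Cebpb and Cebpd. In it 2 of 14 measured genes were called higher and 0 lower, with a median difference of 0.04. At an unadjusted limma p under 0.05, 3 of them were higher and 0 lower. For this list and those below, the shares of all genes called were 0.386% higher and 0.0351% lower. At an unadjusted limma p under 0.05 the shares were 3.78% and 2.83%. Socs3, a feedback inhibitor that STAT3 induces, went from 6.61, 6.42 and 6.18 to 9.57, 9.45 and 9.63, a difference of 3.15 ± 0.11 (limma adjusted p = 1.45e-06), and its other probe set had a difference of 1.79. Every IL-6 array was far above every saline array. Stat3, the main IL-6 transcription factor, rose by 0.52 ± 0.09 at the edge of the threshold (limma adjusted p = 0.04996). That call ended when any single array other than IL-6 replicate 2 was dropped (up to 0.220), and when saline replicate 2 and IL-6 replicate 3 were dropped together (limma adjusted p = 0.411) or every probe set was tested (0.217).

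Leucine zipper relatives and partners of the C/EBP family held 4 called genes of 23, all higher, with a median difference of 0.03 over the list. In that list 7 genes were higher and 0 lower at an unadjusted limma p under 0.05. Nfil3, a repressor of the PAR leucine zipper sites, went from 8.22, 8.23 and 8.04 to 9.42, 9.40 and 9.34 (difference 1.22 ± 0.08, limma adjusted p = 0.000144). Jun, an AP-1 subunit, rose by 1.32 ± 0.13 and Junb, another, by 1.07 ± 0.10 (limma adjusted p = 0.00231 for both). Both calls ended when every probe set was tested (limma adjusted p = 0.0732 and 0.0651). Atf3, a stress-induced factor that can pair with other leucine zipper proteins, rose by 0.58 ± 0.09 (limma adjusted p = 0.0230). Dropping any single array other than saline replicate 1 ended the call (up to 0.0965), as did dropping saline replicate 2 and IL-6 replicate 3 together (limma adjusted p = 0.210) or testing every probe set (0.150). Atf4, a partner of several C/EBP proteins, had a difference of 0.12 ± 0.09 and Fos, another AP-1 subunit, -0.001 ± 0.08. Neither passed, and both are named outside the rule for named genes, after their values were seen.

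Genes listed for the control of C/EBP proteins held 0 called of 17 in limma, with a median of 0.01. At an unadjusted p under 0.05, 1 was higher and 1 lower. The smallest p values were those of Id2, an inhibitor of helix-loop-helix factors, at 0.77 ± 0.17 (limma adjusted p = 0.181), and Trib3, a pseudokinase and CHOP target, at -0.27 ± 0.08 (limma adjusted p = 0.403). Trib1, which directs C/EBP-alpha to degradation, had a difference of 0.21 ± 0.10 (limma adjusted p = 0.778) and is named outside the rule.

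**Figure D3:**
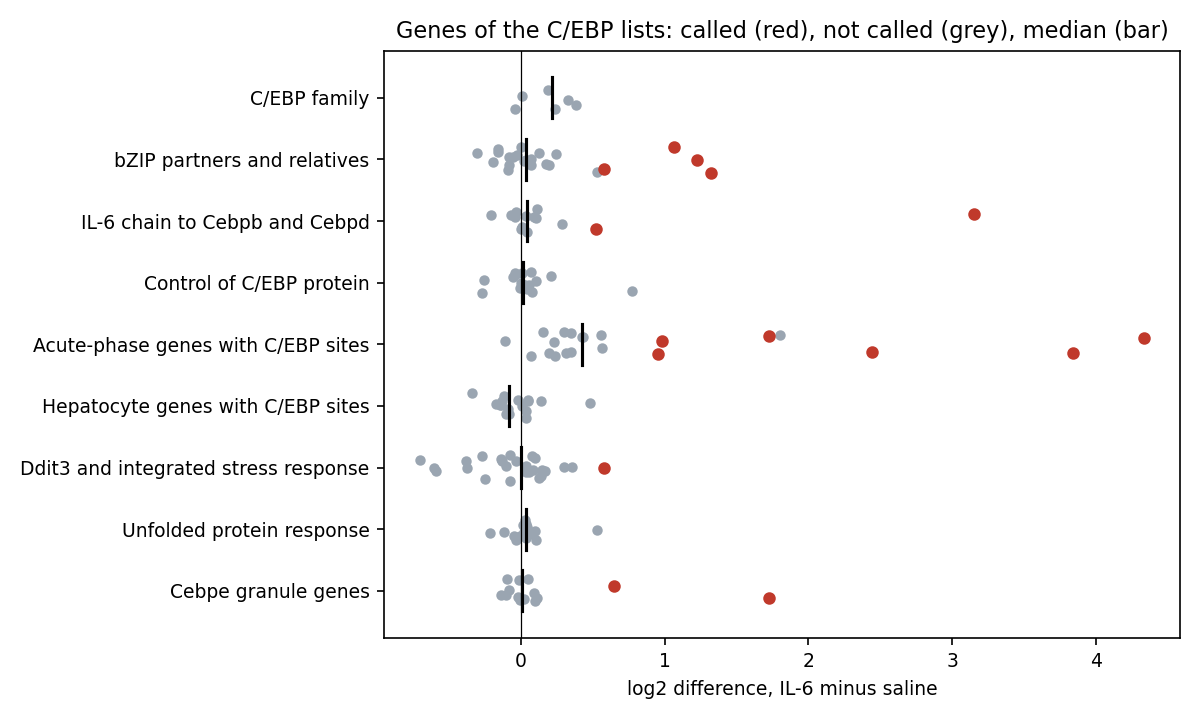
Log2 difference between IL-6 and saline for each measured gene of the lists (points; red where called by limma at adjusted p under 0.05, grey otherwise, scattered vertically for legibility), with the list median as a bar. The C/EBP row holds no red point and a median of 0.21, and the acute-phase row holds 6 called genes, up to 4.33.

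Acute-phase genes listed as having C/EBP sites in their promoters held 6 called genes of 21, all higher, and a median difference of 0.42. The list was drawn up from textbook knowledge with earlier results of these data known. The sites were not checked in sequence for its genes. At an unadjusted p under 0.05, 17 of the 21 were higher and 0 lower. Saa2, a serum amyloid A protein, rose by 4.33 ± 0.18 (limma adjusted p = 4.37e-06) and Saa1, its close relative, by 3.84 ± 0.28 (0.000277). Orm2, an orosomucoid, rose by 2.44 ± 0.23 (limma adjusted p = 0.00190) and Lcn2, which binds bacterial iron carriers, by 1.72 ± 0.22 (0.0107). When every probe set was tested, the calls of Orm2 (limma adjusted p = 0.0732) and Lcn2 (0.150) ended, and that of Lcn2 also ended under a robust variance prior with a trend (0.0581). Fga and Serpina3n were the other called members, named outside the rule, and their calls under other settings were not tabulated. In the same arrays the differences of Cebpb and Cebpd were 0.38 and 0.19. Whether these members act on the listed genes was not tested.

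Hepatocyte genes listed as having C/EBP sites, likewise not checked in sequence, held 0 called of 17 in limma, with a median of -0.09. At an unadjusted p under 0.05, 1 was higher and 1 lower. G6pc, the last enzyme of glucose release, had a difference of -0.34 ± 0.11 (limma adjusted p = 0.532) and Igfbp1, a secreted binding protein of insulin-like growth factors, 0.48 ± 0.18 (limma adjusted p = 0.652). Alb, which encodes albumin, had 0.03 ± 0.07. The 9 hepatocyte markers were bright in all arrays, with means of 12.6 to 12.7 on the log2 scale.

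In the list of Ddit3 and the integrated stress response, 1 of 26 genes was called higher (Atf3) and 0 lower, beside 0.386% and 0.0351% of all genes. The median was 0.003 in the list and over all genes. At an unadjusted p under 0.05, 3 were higher and 6 lower, beside 3.78% and 2.83% of all genes. The higher ones were Atf3, Chac1 (0.36 ± 0.09) and Eif2ak2 (0.30 ± 0.08). The lower ones were Ddit4, Fgf21, Sesn2, Slc7a11, Trib3 and Cth, with differences from -0.70 to -0.25. Chac1, Eif2ak2 and the lower genes other than Trib3 are given after their values were seen. Chac1, Eif2ak2 and the 6 lower genes did not pass over all genes (limma adjusted p of 0.218 or more). In the unfolded protein response list 0 of 18 passed in limma, with 1 higher and 1 lower at an unadjusted p under 0.05. Xbp1, a factor of that response, had a difference of 0.53 ± 0.10 (limma adjusted p = 0.0922), and Herpud1, which works in the degradation of misfolded proteins, -0.22 ± 0.09 (limma adjusted p = 0.696).

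A list of granule genes and other granulocyte genes, drawn up around C/EBP-epsilon, held 2 called genes of 14, Lcn2 and S100a8. Its median was 0.01, with 7 differences above 0 and 7 below it. No other gene of the list had an unadjusted limma p under 0.05. Lcn2 is also made by hepatocytes in inflammation and stands in the acute-phase list too. S100a8, a calcium-binding protein of neutrophils, rose by 0.65 ± 0.09 from a saline mean of 3.60, a dim level (limma adjusted p = 0.0211). The call ended when any single array other than IL-6 replicate 3 was dropped (up to 0.128), and when saline replicate 2 and IL-6 replicate 3 were dropped together (limma adjusted p = 0.0751) or every probe set was tested (0.152). Of the other 9 marker lists, which cover liver, blood and fat cells, none held a called gene in limma, and at an unadjusted p under 0.05 the Kupffer cell list had 2 higher of 11, the cholangiocyte list 1 higher of 7, the adipocyte list 1 higher and 1 lower of 7, and the other 6 lists none.

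For each member, the other genes closest to it over the 6 arrays were found by the root mean square distance between profiles, each set to its own saline mean, among genes that spanned at least 0.3. Cebpb lay nearest to Themis (distance 0.05), Ddit3 to Ifnk (0.01), Cebpd to Lysmd3 (0.04), Cebpg to 2310022A10Rik (0.04), Cebpa to Insr (0.05) and Cebpe to Pyy (0.03). The profiles of Cebpa and Cebpe spanned only 0.14 and 0.24 themselves. None of the 18 genes named in this way, 3 per member, passed in limma (adjusted p of 0.326 or more). These distances describe 6 arrays searched over 19938 genes.

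**Figure D4:**
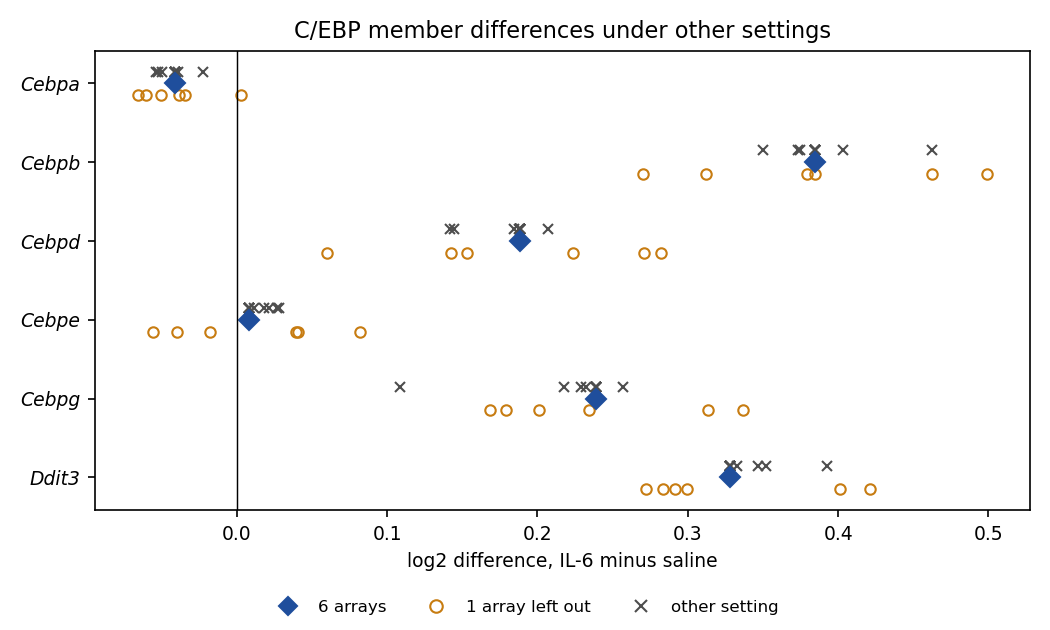
Log2 difference between IL-6 and saline of each C/EBP gene with all 6 arrays (diamond), with 1 array left out (circles) and under the other settings (crosses). Cebpb, Cebpd, Cebpg and Ddit3 stayed above 0 in every setting shown, Cebpb from 0.27 to 0.50 and Cebpd from 0.06 to 0.28, while Cebpa and Cebpe lay on both sides of 0.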

How the data were processed

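The authors deposited 1 log2 value per probe set and array, computed with RMA as the submitters' processing notes state. RMA subtracts background, forces arrays to a common distribution and summarises probes, so large changes may be understated and a global shift would be lost. For its version and for the build, the sources used here give nothing. Of 35556 probe sets, 21789 had exactly 1 symbol in the platform annotation, 1621 several and 12146 none. The probe set with the highest mean was kept per gene, leaving 19938 genes.

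IL-6 was compared with saline in limma 3.58.1 (R 4.3.3; lmFit, eBayes, two-sided), with Benjamini-Hochberg adjustment over 19938 genes, a threshold of 0.05 and unadjusted 95% intervals. Array number limits precision: the median standard error was 0.09. Separate mice per array are not stated in the labels, and the spread may therefore be partly technical.

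The fit was tested on simulated data. The rule for members uses symbols alone, but the members, 8 gene lists and 10 marker lists were chosen with earlier results of these data known. Named genes were the members, up to 4 called genes per list by size (or the 2 with the smallest p), the 3 genes nearest to each member, and Socs3, Saa2 and Alb; others are marked where they appear. Alternatives covered normalization, low-value filters, probe sets, variance priors, weights, the replicate number as a block and left-out arrays. Figures used matplotlib 3.10.9.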

Additional observations from a re-analysis of the deposited data

How the results depend on the processing

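No C/EBP gene was called in limma under any of the 18 settings tried, 17 planned and 1 added after seeing the data, with adjusted p from 0.237 to 0.998 over all members and settings. One exception in coverage is Cebpe, which the filter at the median removed. Cebpb, Cebpd, Cebpg and Ddit3 kept a positive difference in all settings. With 1 array left out, Cebpa ranged from -0.0661 to 0.0028, above 0 only without IL-6 replicate 2. Cebpe ranged from -0.0556 to 0.0818, below 0 without saline replicate 2 and without either of the first 2 IL-6 arrays.

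The 77 higher and 7 lower genes became 31 and 2 without saline replicate 2 and IL-6 replicate 3 together. With 1 array left out they ranged from 45 to 67 higher and from 3 to 5 lower. When all 35556 probe sets were tested, 16 probe sets were higher and 1 lower, a count of probe sets and not of genes. The 13 called genes of the 8 lists, all higher, became 4 when every probe set was tested. The 2 pairs of members without overlap became 2 to 6 with 1 array left out, where fewer values overlap less by construction.

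With the replicate number as a replicate block, limma called 0 members, 59 genes higher and 6 lower, and Stat3 (adjusted p = 0.132), Atf3 (0.0871) and S100a8 (0.0759) were not called. Deviations of same-numbered arrays correlated at 0.08, -0.12 and -0.09, so the numbers were not taken to pair arrays. At their standard errors, members needed differences of 0.43 (Cebpa) to 0.73 (Cebpb) to be called. That limit reflects both the 3 arrays per group and the adjustment over 19938 genes.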
